A study of Mus musculus with 6 samples.

Results

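The milk protein genes Csn1s1, Csn1s2a and Csn2, which encode caseins, and Xdh, which encodes xanthine dehydrogenase, were followed in cell lines grown from ErbB2-driven mouse mammary tumours. They were found as all probe sets whose deposited gene symbol is one of these 4 names. This gave 5 probe sets, 1 each for Csn1s1, Csn2 and Xdh and 2 for Csn1s2a, so that 4 genes were taken of 4462 named in the data. The members were chosen by the measured difference between genotypes: a symbol was deposited only for probe sets whose deposited p, for knockout against wild type, was under 0.05. Differences between genotypes are therefore given for these genes as a description, and the fit over all probe sets serves only as their background.

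The series holds 6 arrays, each of 1 cell line and 1 culture as far as the labels say. Lines 72, 75 and 116 lack Akt1 and are labelled akt(-/-), and lines 31, 101 and 102 have it and are labelled akt(+/+). The Akt1 protein is a kinase of the insulin and growth factor signalling pathway, and the design asks how these tumour cells differ without it. All 6 lines carry the ErbB2 oncogene, under control of MMTV, a viral promoter that works in mammary epithelial cells and is induced by glucocorticoids. Per the labels, the cells were freed of fibroblasts by a plating step of 4 h and kept for 25 passages. The medium held 10% serum, insulin at 4 µg/ml, hydrocortisone at 1 µg/ml, EGF at 10 ng/ml and cholera toxin at 10 ng/ml, and prolactin is not among the additives listed. Neither strain and age of the mice nor the deleted part of Akt1 was stated in the labels. Nor do they tie the lines to animals, so the spread given here is only that between lines.

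Caseins are the main proteins of milk and carry calcium and phosphate to the young in micelles. Alveolar cells of the lactating gland make them under prolactin, which acts through its receptor, the kinase JAK2 and the transcription factor STAT5, together with glucocorticoid and insulin. Xanthine dehydrogenase catalyses the last steps of purine breakdown to uric acid. In the mammary gland it also sits at the cell apex with butyrophilin, where it is needed to release milk fat droplets.

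The start regions of the casein genes are shown because STAT5 is known to act there. Sequences come from RefSeq (GRCm38.p6), whose table of windows, from 250 bases before to 50 bases after a gene's start, holds 3 of the 4 genes, and all 3 lie on chromosome 5. Capitals mark STAT-type letters, TTCNNNGAA or, with a spacer longer by 1 base, TTCNNNNGAA, searched on both strands. For Csn1s1 and Csn2 the 250 bases before the start are given (Csn1s1 at chr5:87665958-87666207, plus strand, and Csn2 at chr5:87699426-87699675, minus strand). For Csn1s2a 30 bases around the match are given (chr5:87774460-87774489, plus strand).

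Csn1s1: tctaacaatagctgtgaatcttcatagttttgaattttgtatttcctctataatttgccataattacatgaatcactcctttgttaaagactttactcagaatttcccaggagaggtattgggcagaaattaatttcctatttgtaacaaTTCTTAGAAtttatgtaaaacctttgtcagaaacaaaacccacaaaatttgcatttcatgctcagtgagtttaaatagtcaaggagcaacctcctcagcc
Csn2: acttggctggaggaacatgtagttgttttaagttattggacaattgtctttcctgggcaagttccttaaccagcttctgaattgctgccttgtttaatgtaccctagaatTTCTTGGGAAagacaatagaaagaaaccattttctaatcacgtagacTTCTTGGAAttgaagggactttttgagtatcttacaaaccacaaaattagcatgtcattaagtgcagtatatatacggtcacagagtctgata
Csn1s2a: ttatagtgctTTCTTAGAAttacaatgact

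Each of these 3 casein genes held 1 match to TTCNNNGAA, which 8.3% of the 32851 windows in the table hold. The windows of Csn1s1, Csn1s2a and Csn2 held 35.3%, 32.3% and 38.7% G and C, against a median of 52.7%. The shares over all windows given here are not matched for this base content. Positions are counted from the start annotated in RefSeq, with the first transcribed base as 1. The match lay at -100 to -92 in Csn1s1 and at -93 to -85 in Csn2, while in Csn1s2a it lay after the annotated start, at 21 to 29. Csn1s1 and Csn1s2a had the same 9 letters, TTCTTAGAA, which occur in 0.435% of the windows. Csn2 differed from them with TTCTTGGAA and alone held the longer form, at -140 to -131, found in 6.95% of windows. A glucocorticoid receptor half-site (AGAACA, either strand, in 18.97% of windows) and a C/EBP core (TTNNGNAAT, either strand, in 11.46%) each had 1 match, in Csn1s2a. Such matches describe letters and not binding, which was not measured here.

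Akt1 itself matched the labels. Its brighter probe set read 4.62, 4.57 and 4.38 log2 units in akt(-/-) lines 72, 75 and 116, against 9.71, 10.09 and 10.03 in akt(+/+) lines 31, 101 and 102 (difference -5.42, limma adjusted p = 0.00041). All values here are the authors' deposited log2 expression, and each difference is akt(-/-) minus akt(+/+), so that 1 unit is a 2-fold change. The array medians lay between 5.41 and 5.50 in the deposited values, which a normalization step that is not stated may have set.

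Csn1s1 (probe set 1420627_a_at), which encodes alpha-S1 casein, was far higher in the knockout lines. It read 12.54, 13.74 and 12.89 log2 units in akt(-/-) lines 72, 75 and 116, against 9.30, 10.45 and 10.39 in akt(+/+) lines 31, 101 and 102. The groups lay far apart, with 2.09 log2 units between the lowest knockout and the highest wild-type line. That gap was the widest among all 4978 probe sets with every akt(-/-) line above every akt(+/+) line. By the same gap the Csn1s2a probe sets stood at places 191 and 586, Xdh at 262 and Csn2 at 946. These places come from the contrast that chose the members and are description only. For Csn1s1 the group means were 13.06 ± 0.62 in the knockout lines and 10.05 ± 0.65 in the wild-type lines (SD, n = 3 each), a difference of 3.01 with a standard error of 0.42. Among signed differences, it ranked second of 45037 probe sets toward higher in akt(-/-), and the probe set above it carried no symbol. In bulk cultures, a larger share of casein-making cells and more casein RNA per cell cannot be told apart.

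Csn1s2a, which encodes an alpha-S2-like casein, was higher in the knockout lines on both of its probe sets. The first, 1436170_a_at, read 12.94, 13.48 and 13.38 in akt(-/-) lines 72, 75 and 116, against 11.38, 12.62 and 12.04 in akt(+/+) lines 31, 101 and 102. The second, 1420633_a_at, read 12.72, 13.27 and 13.16 in the same knockout lines, against 10.83, 12.22 and 11.51 in the wild-type lines. Every knockout line was above every wild-type line on both, although the margin between line 72 and line 101 was only 0.32 on the first and 0.50 on the second. The differences were 1.25 (standard error 0.33) and 1.53 (standard error 0.36).

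Both Csn1s2a probe sets ordered the 6 lines alike. On the knockout arrays 1436170_a_at lay 0.75 to 1.30 log2 units below the brightest probe set of the array, against 1.61 to 2.88 below it on the wild-type arrays. Csn1s1 lay 0.48 to 1.69 below the brightest on the knockout arrays, against 3.76 to 4.96 on the wild-type arrays. These probe sets thus read close to the top of the scale in the knockout lines, and the part of that upper end in the size of their differences was not tested.

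Csn2 (probe set 1438254_at), which encodes beta-casein, differed least among the 5 probe sets. It read 8.30, 8.43 and 8.72 in akt(-/-) lines 72, 75 and 116, against 7.89, 7.98 and 8.06 in akt(+/+) lines 31, 101 and 102. The groups did not overlap, but lines 72 and 102 lay only 0.24 apart. The difference was 0.51 with a standard error of 0.15, or 1.42-fold. Its probe set was also the steadiest of the 5: among the 4102 probe sets within 0.5 log2 units of its mean level, 11.7% had a smaller spread between lines of one genotype.

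Xdh (probe set 1451006_at) was higher in the knockout lines with wide spread in both genotypes. It read 10.56, 9.72 and 10.66 in akt(-/-) lines 72, 75 and 116, against 7.69, 9.27 and 8.32 in akt(+/+) lines 31, 101 and 102. Knockout line 75 and wild-type line 101 lay 0.46 apart, closer to each other than to any line of their own genotype. The means were 10.31 ± 0.52 in the knockout and 8.42 ± 0.80 in the wild-type lines (SD, n = 3 each), a difference of 1.89 with a standard error of 0.44, or 3.71-fold.

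**Figure D1:**
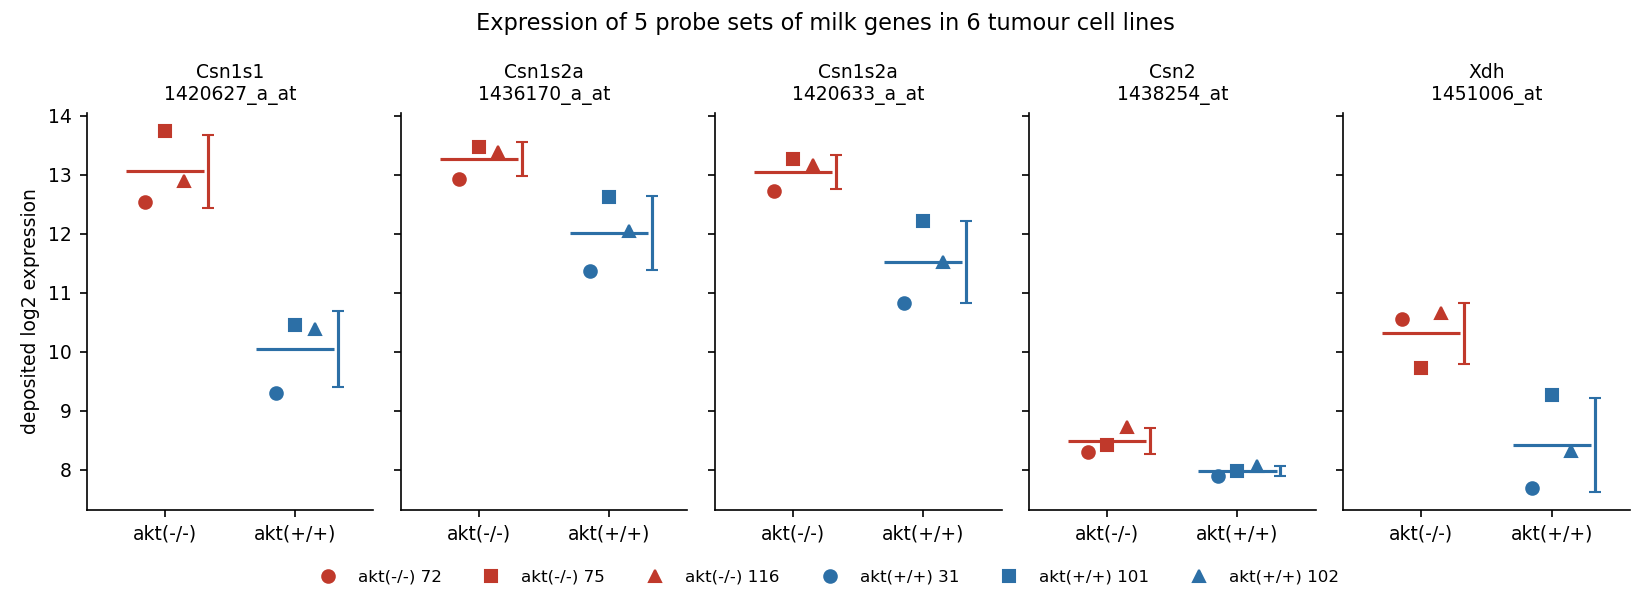
Deposited log2 expression (vertical axis) of the 5 probe sets in each cell line, akt(-/-) lines in red and akt(+/+) lines in blue, with marker shapes for single lines, horizontal bars for group means and error bars for the SD (n = 3). Every knockout line lies above every wild-type line in each panel, with a gap of 2.09 for Csn1s1 and 0.24 for Csn2, and line 31 is the lowest point throughout.

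The size of the differences among these genes ran from 0.51 for Csn2 to 3.01 for Csn1s1, although the 3 casein genes are direct neighbours. In the RefSeq order of protein-coding genes on chromosome 5, Csn1s1, Csn2 and Csn1s2a follow each other in that order, and Csn1s2b comes next. On the named probe sets, the gene in the middle of the run, Csn2, thus had the smallest difference. Csn1s1 and Csn2 were each read by 1 named probe set, and probe sets differ in how they bind. The differences therefore do not rank these genes. Of the 5 genes on either side of each casein gene, no gene other than these caseins carried a symbol. Xdh lies on chromosome 17, where 3 of its 10 neighbours were named. Slc30a6, a zinc transporter gene, was 0.21 higher in the knockout lines and Spast, which encodes the microtubule-severing protein spastin, was 0.54 higher. The adjacent Srd5a2, a steroid reductase gene, differed by -0.13 and was dim, at 3.68 in the knockout and 3.81 in the wild-type lines.

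Counts over all probe sets are given here as the background of the members. With limma and Benjamini-Hochberg adjustment, 0 of 5 member probe sets had an adjusted p under 0.05, where 0.107% of the 45037 probe sets did in either direction and 0.00888% were called higher in the knockout lines. At an unadjusted p under 0.05 the count was 5 of 5, which the choice of members nearly fixes, against 15.4% of all probe sets and 81.6% of those with a symbol. The 48 calls over all probe sets depended on the lines used: there were 327 without akt(-/-) line 75, 2 without akt(+/+) line 31, and 1 without akt(-/-) line 72, akt(-/-) line 116, akt(+/+) line 101 or akt(+/+) line 102, with 0 of 5 members called each time. Every akt(-/-) line lay above every akt(+/+) line for 5 of 5 member probe sets and for 11.1% of all probe sets, and 4 of 5 were at least 2-fold higher by group means, against 1.11% of all. Since the same contrast chose the members, nothing is read from these shares. The median difference was 1.53 over the 5 member probe sets, against 0.03 over all probe sets and -0.27 over the 5604 with a symbol.

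In the authors' deposited table of 953 probe sets past their p and fold limits, of which 183 are higher in the knockout, Csn1s1 stands first by difference with a signed fold of 8.06. Xdh stands at place 13 in the authors' deposited table with a fold of 3.71, and the Csn1s2a probe sets stand at 35 and 87 with 2.88 and 2.38. Csn2, below 2-fold, is in the longer list only. Within the limit for a symbol, the deposited p of the members in that longer list ran from 0.00439 for Csn1s1 to 0.034 for Csn1s2a 1436170_a_at. Probe sets just outside that limit carry no symbol, so no further probe set of these genes could be set beside them.

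**Figure D2:**
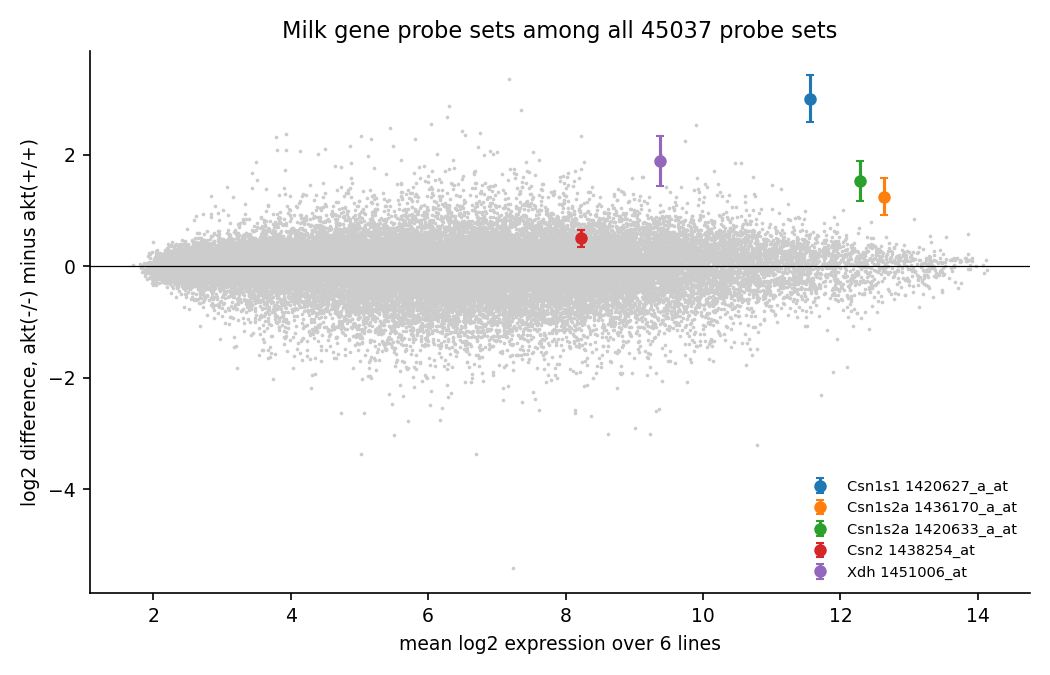
Log2 difference, akt(-/-) minus akt(+/+) (vertical axis), against mean log2 expression over the 6 lines (horizontal axis) for all 45037 probe sets in grey, with the 5 member probe sets in colour and their standard errors as bars. Csn1s1 at 3.01 and the Csn1s2a probe sets at 1.25 and 1.53 lie among the bright probe sets, and Csn2 at 0.51 lies inside the grey cloud.

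Csn1s2a was among the brightest signals on these arrays in both genotypes. Csn1s2a 1436170_a_at read above 99.6%, 99.9% and 99.9% of probe sets in akt(-/-) lines 72, 75 and 116, against 97.7%, 99.4% and 98.9% in akt(+/+) lines 31, 101 and 102. Csn1s1 read above 99.3%, 99.9% and 99.6% of probe sets in the same knockout lines, against 88.8%, 95.2% and 95.1% in the wild-type lines. So Csn1s2a stood near the top of every array, while Csn1s1 came near it in the knockout lines. Csn2 read above 81.7% to 85.2% of probe sets in knockout and 77.3% to 79.4% in wild-type lines, and Xdh above 91.8% to 95.8% and 75.3% to 89.1%. These shares place each probe set on its own array and do not rank the genes against each other, since probe sets differ in how they bind.

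Lines of one genotype differed widely for Csn1s1 and Xdh, for Csn1s2a mainly among the wild-type lines, and least for Csn2. Among the knockout lines the highest read 2.30-fold above the lowest for Csn1s1, 1.92-fold for Xdh, 1.45-fold and 1.46-fold for the 2 Csn1s2a probe sets and 1.34-fold for Csn2. Among the wild-type lines those ratios were 2.23 for Csn1s1, 2.99 for Xdh, 2.37 and 2.63 for Csn1s2a and 1.12 for Csn2. The brighter Csn1s2a probe set read 0.21 to 0.22 log2 units above the dimmer in knockout lines, against 0.40 to 0.55 in wild-type lines. The part of the upper end of the scale in the small Csn1s2a spread of the knockout lines was not tested. Set beside probe sets within 0.5 log2 units of the same mean level, 93.0% to 96.3% had a smaller spread, pooled over both genotypes, than Csn1s1, Csn1s2a or Xdh.

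The wild-type line 31 was the lowest wild-type line for 5 of 5 member probe sets, and it was the lowest wild-type line for 37.8% of all probe sets. Since the groups do not overlap for the members, it was also the lowest of all 6 lines. Above it, line 101 was the highest wild-type line for Csn1s1, Csn1s2a and Xdh, and line 102 for Csn2. Without line 31 the differences were 2.63 for Csn1s1, 0.94 and 1.18 for Csn1s2a, 0.47 for Csn2 and 1.52 for Xdh.

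The knockout lines did not share an order across these genes. Line 75 was the highest for Csn1s1 and for both Csn1s2a probe sets, by 0.69, 0.21 and 0.22 above the knockout mean. The same line was the lowest knockout line for Xdh, at -0.59 from the mean, and line 116 was the highest for Xdh and Csn2. Line 72 was the lowest knockout line for the 4 casein probe sets and was 0.24 above the knockout mean for Xdh.

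**Figure D3:**
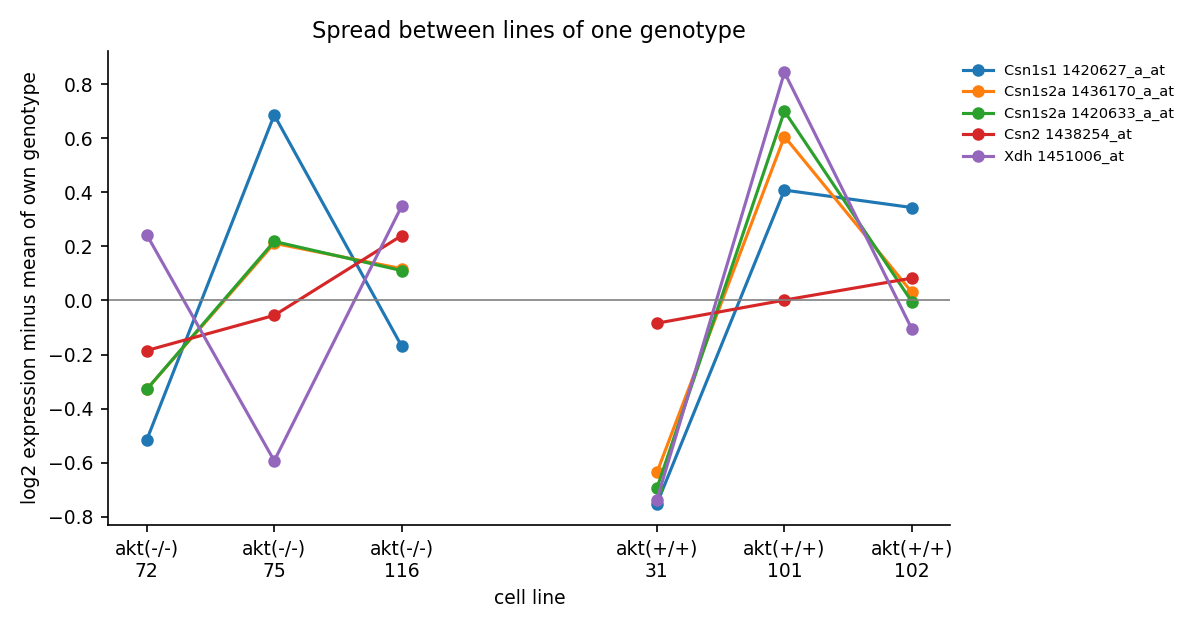
Deviation of each cell line from the mean of its own genotype (vertical axis, log2 units) for the 5 probe sets, akt(-/-) lines on the left and akt(+/+) lines on the right; lines join the points of one probe set. Line 31 is below its genotype mean for all 5 (-0.08 to -0.75), and line 75 is 0.69 above for Csn1s1 but at -0.59 for Xdh.

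As correlations over the 6 lines after subtracting each genotype's mean, which leaves 4 free values, the 2 Csn1s2a probe sets had r = 0.998 with each other and 0.837 and 0.815 with Csn1s1. Xdh had r = 0.158 with Csn1s1, 0.625 and 0.651 with the Csn1s2a probe sets and 0.284 with Csn2, and Csn2 had 0.260 with Csn1s1 and 0.420 and 0.381 with Csn1s2a. The points share the same arrays, and these values describe 6 lines only.

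Other named genes whose spread between lines was most like that of a member came from many processes. For Csn1s1 they were Zc3h11a, Blmh, BC008163 and Tcf4, with r from 0.970 to 0.990, and all 4 were lower in the knockout lines by group means (differences -0.45 to -0.86), unlike Csn1s1. For Csn1s2a they were Dnm1l, which encodes the GTPase of mitochondrial fission, the integrin gene Itgb5, the DNA helicase gene Brip1 and Herc4, with r from 0.989 to 0.999. For Csn2 they were Obox1, BC050078, Gclc and Mtf2 (r from 0.976 to 0.988), where Gclc encodes the catalytic subunit of the enzyme that starts glutathione synthesis. For Xdh they were BB128963 (now Mtmr10), Ext1, Nanp and Tpd52 (r from 0.984 to 0.998), where Ext1 is needed for heparan sulphate chains. Among the genes named for Csn1s2a, Csn2 and Xdh, Itgb5, Herc4, Obox1, Gclc and Ext1 were lower in the knockout lines by group means. The others were higher. Brip1 and Obox1 were dim, below the lower quartile of every array. With so few lines high values are common: between 254 and 283 of the 45036 other probe sets had r above 0.95 with a given member.

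Beyond the caseins, few other milk protein genes carried a symbol. Genes of this and the following lists also carry one only where the deposited p for the same contrast is under 0.05, so their counts at an unadjusted p and their separation are mostly fixed by that. Of all probe sets with a symbol, 81.6% had an unadjusted limma p under 0.05. Of an 18-gene list of milk proteins and secretory genes 5 were named, the 3 caseins and 2 more. Those 2, Lpo and Cel, were higher in the knockout lines by group means (median 0.36), where 46.3% of probe sets with a symbol were higher (median -0.27). Of the 5, 0 were past the limma threshold and 4 had an unadjusted p under 0.05. Lpo, which encodes lactoperoxidase, averaged 4.79 ± 0.13 in the knockout and 4.35 ± 0.22 in the wild-type lines (SD, n = 3 each). Cel, which encodes bile salt-stimulated lipase, averaged 4.71 ± 0.02 in the knockout and 4.43 ± 0.15 in the wild-type lines. Both probe sets read below the median of every array. Wap, Lalba, Csn3, Csn1s2b and Glycam1 carried no symbol and were not analysed here.

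Named genes of the prolactin and STAT5 pathway went both ways, with 7 of 22 named, 3 higher and 4 lower (median -0.58). Among probe sets with a symbol 53.7% were lower (median -0.27). Of the 7, 0 were past the limma threshold and 6 had an unadjusted p under 0.05. Socs2, a feedback inhibitor that is itself a target of STAT5, read 12.35, 11.98 and 11.98 in akt(-/-) lines 72, 75 and 116, against 12.82, 13.04 and 12.61 in akt(+/+) lines 31, 101 and 102. All 3 of its named probe sets were lower in the knockout lines, by -0.72, -1.21 and -1.05, opposite in sign to the caseins. Prlr, Jak2, Stat5a, Stat5b, Elf5 and Cish carried no symbol and were not analysed here.

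Among the transcription factors of that list, Cebpb, whose product is needed for alveolar differentiation, differed by -1.45 on its brighter probe set and 0.76 on its other. Nr3c1, the glucocorticoid receptor gene, was 0.37, 0.82 and 0.13 higher on 3 probe sets and differed by -0.76 on another. Nfib, whose factor family binds milk gene promoters, differed by -0.77. Of the receptors and phosphatases, Tnfrsf11a, the receptor gene for RANK ligand, was 0.77 higher, Insr, the insulin receptor gene, 0.30 higher, and Ptpn1, a tyrosine phosphatase gene, differed by -0.58.

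Few milk fat genes carried a symbol. Of 24 genes for the milk fat globule and milk fat synthesis 6 were named, and apart from Xdh the other 5 were lower in the knockout lines by group means (median -0.81, where 53.7% of probe sets with a symbol were lower), with 0 past the limma threshold and 6 at an unadjusted p under 0.05. Scd1, which encodes a fatty acid desaturase, read 5.79, 4.54 and 3.96 in akt(-/-) lines 72, 75 and 116, against 6.63, 6.45 and 6.65 in akt(+/+) lines 31, 101 and 102. The knockout lines were all below the wild-type lines, and unevenly so. The fatty acid elongase gene Elovl6 differed by -1.45, the fatty acid transporter gene Slc27a4 by -0.81, Dgat1, for the last step of triglyceride synthesis, by -0.64 and Acaca, for the committed step of fatty acid synthesis, by -0.38. Btn1a1, Plin2 and Cidea, whose products act with xanthine dehydrogenase on milk fat droplets, carried no symbol and were not analysed here.

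Few genes of the purine side of Xdh carried a symbol. Of 21 genes for purine breakdown and the molybdenum cofactor that the enzyme needs, 4 were named, Xdh itself and 3 more. Of those 3, 2 were higher and 1 lower, where 46.3% of probe sets with a symbol were higher. Of the 4, 0 were past the limma threshold and 4 had an unadjusted p under 0.05. Ampd2, an AMP deaminase gene, was 0.54 higher on its brighter probe set and differed by -0.76 on the other. Hprt, for purine salvage, was 0.37 higher, and the nucleotidase gene Nt5c2 differed by -0.82, -0.69 and -0.42 on its 3 probe sets.

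Folding and calcium handling in the secretory route are needed by casein-making cells. Of 20 genes listed for them 8 were named, 2 higher and 6 lower (median -0.42, where 53.7% of probe sets with a symbol were lower), with 0 past the limma threshold and 6 at an unadjusted p under 0.05. Xbp1, a transcription factor of the unfolded protein response, was 1.33 higher and Hspa5, an endoplasmic reticulum chaperone gene, 0.69 higher. Hsp90b1, another such chaperone gene, differed by -0.81, Sec61a1, of the protein channel into the endoplasmic reticulum, by -0.30 and the stress sensor gene Ern1 by -0.26. The Golgi calcium pump genes 1810010G06Rik (now Atp2c2) and Atp2c1 differed by -1.16 and -0.54, and the phosphate transporter gene Slc20a1 by -0.99. Atp2c1 was dim, at 2.21 in the knockout and 2.75 in the wild-type lines, below the lower quartile of every array.

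**Figure D4:**
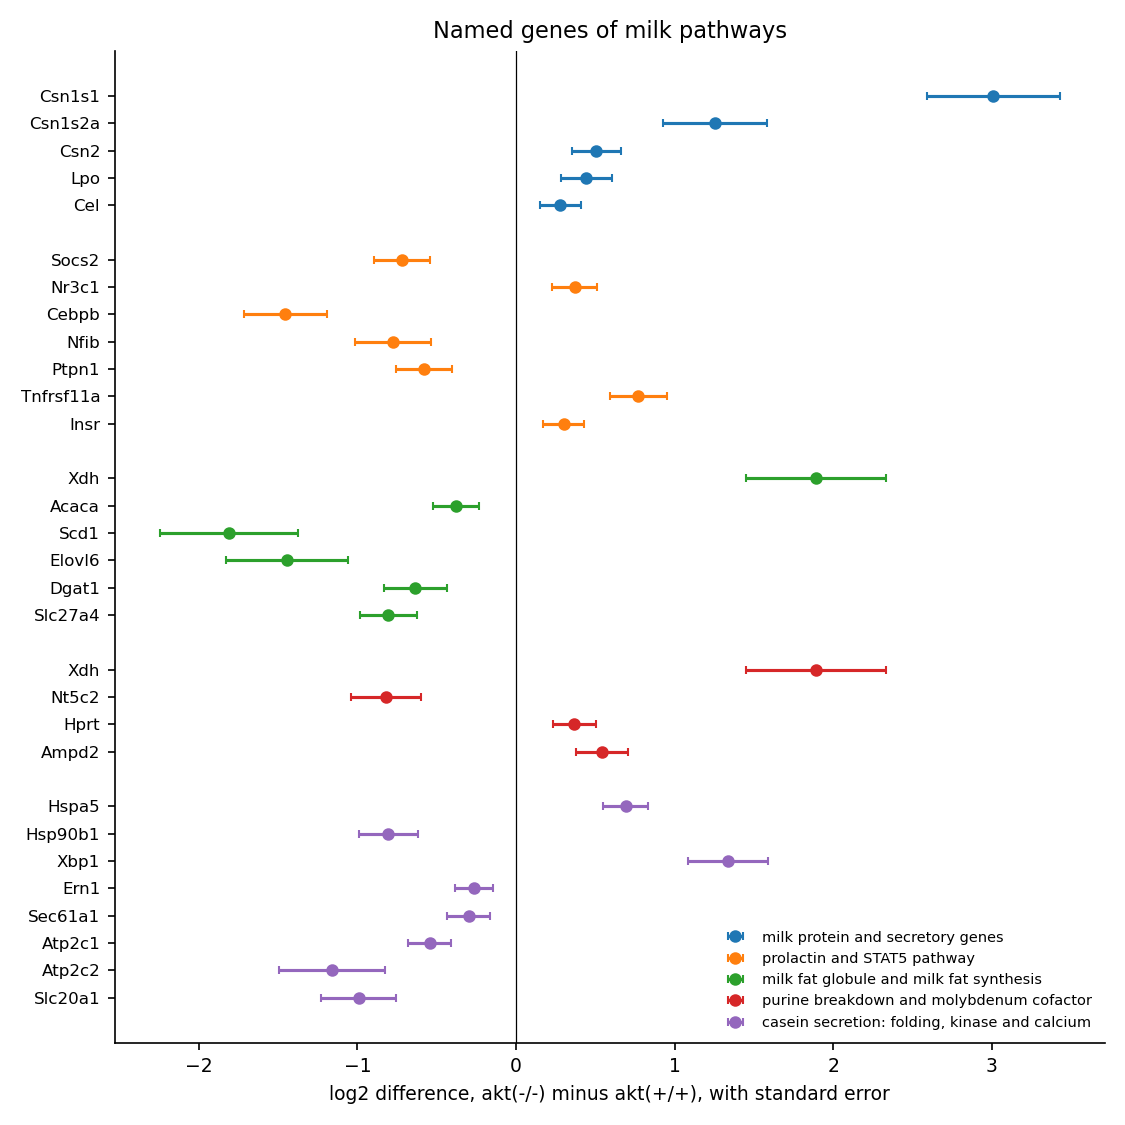
Log2 difference, akt(-/-) minus akt(+/+) (horizontal axis), with its standard error for every named gene of 5 milk-related lists, coloured by list and each shown by its probe set of highest mean. The milk protein list lies above 0 throughout (0.28 to 3.01), while in the milk fat list Xdh at 1.89 stands alone to the right and 5 genes lie between -0.38 and -1.81.

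Markers of cell types are given where they carried a symbol. The contrast of the genotypes sets which do, so the number named does not check the labelled cell type. The luminal keratin gene Krt8 was bright in every line, averaging 12.72 ± 0.12 in the knockout and 12.41 ± 0.09 in the wild-type lines (SD, n = 3 each). Of 16 luminal markers 5 were named, Krt8, Epcam and Cldn3 higher (0.31, 0.80 and 1.67) and Cdh1 and Cldn7 lower (-0.70 and -0.48). Their summed log2 level was 47.6 to 49.9 in knockout and 46.7 to 47.3 in wild-type lines. In akt(-/-) lines 72, 75 and 116 the sum was 49.9, 47.6 and 48.5. In akt(+/+) lines 31, 101 and 102 it was 47.3, 46.7 and 47.3. Among the 5 markers Cldn3 spread most between the knockout lines, at 9.87, 8.07 and 8.66 in lines 72, 75 and 116. Cldn3 also had the largest difference, and without it the sums of the genotypes overlap. The sum of the 5 markers was lowest in lines 75 and 101, which read highest of their genotype for Csn1s1 and Csn1s2a. For Csn2 the highest were lines 116 and 102. The part of this luminal sum in the casein differences, within or between genotypes, was not tested. Both named basal markers of 14, Krt5 (0.60 higher) and Itgb4 (-0.56), summed to 14.1 to 14.6 in knockout and 14.0 to 14.6 in wild-type lines.

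Of other cell types, 0 of 16 fibroblast markers were named, 3 of 14 leukocyte markers (Cd8a 0.87 higher, Laptm5 at -0.79 and Coro1a at -0.69), 1 of 10 adipocyte markers (Lipe at -0.62) and 1 of 9 endothelial markers (Plvap at -1.40). Cd8a read below the median of every array, and below the lower quartile in akt(+/+) lines 31 and 102. The summed leukocyte level was 18.2 to 19.0 in knockout and 18.9 to 19.7 in wild-type lines. Lipe read 5.18 to 5.44 in knockout and 5.86 to 5.98 in wild-type lines, and Plvap 7.93 to 8.44 and 8.79 to 10.24. Markers without a symbol, among them Ptprc, Adipoq, Pecam1 and all 16 fibroblast markers, were not analysed here, so nothing is read from their absence. The part of other cell types in the milk gene differences was not tested.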

How the data were processed

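Expression was measured on 6 arrays from total RNA amplified and biotin-labelled by a whole-transcript method, per the labels' protocols. The authors deposited log2 expression for 45101 probe sets, but no label or header names the background correction, the summary method or the normalization behind them. The deposited p-value equals that of an unadjusted equal-variance comparison to within 3.23e-09. A log2 difference and a B score accompany it, and a signed fold is given in the authors' shorter list only, per the file headers. The deposited values were analysed with limma 3.58.1 in R 4.3.3 (no covariate), leaving out 64 control probe sets and adjusting over 45037. The fit was tested on simulated data. The median standard error was 0.183, with 3 arrays a genotype. Old symbols were matched through RefSeq (GRCm38.p6).

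The members and gene lists were chosen with earlier results of these data known. All named genes of a list were reported where it had at most 8, each by its probe set of highest mean, together with the 4 genes most alike per member, Akt1 and named neighbours. Alternatives were quantile normalization, median centring, a filter on dim probe sets, an intensity trend, the series value table, averaging probe sets per gene, and leaving out each line.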

Additional observations from a re-analysis of the deposited data

How the results depend on the processing

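The groups do not overlap for any member, which their choice by the same contrast favours. Leaving out a line therefore could not turn the sign of a member difference. Over the 11 alternatives, Csn1s1 ranged from 2.63 to 3.27, Csn1s2a 1436170_a_at from 0.94 to 1.56, Csn1s2a 1420633_a_at from 1.18 to 1.88, Csn2 from 0.39 to 0.60 and Xdh from 1.52 to 2.31. Of these, the dim filter, the intensity trend and the series value table leave the group means unaltered and could not move a difference. The lowest values came without line 31 for Csn1s1, Csn1s2a and Xdh, and without line 116 for Csn2. Averaging probe sets per gene gave a median member difference of 1.64, against 1.53. Of the counts over all probe sets, 48 became 6 with dim probe sets left out, where 22518 were tested, and 1 to 327 on leaving out lines (327 without akt(-/-) line 75, 1 or 2 without any other). The cause was not tested. No scaling moved the median of all probe sets by more than 0.04. No paired analysis was possible because the genotypes share no replicate number.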
